A study of Homo sapiens with 18 samples.

Results

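The response of TNFalpha-treated K562 cells to heteronemin was measured on 6 two-colour Agilent arrays out of 18 in the study. These were all arrays that set RNA of cells given heteronemin and TNFalpha (cotreated cells) against RNA of cells given TNFalpha alone. K562 cells are an established line from a human chronic myelogenous leukaemia and have erythroid features. Cotreated cells received 6 µM heteronemin at 0 h and 10 ng/mL TNFalpha at 2 h. TNFalpha-treated cells received DMSO in place of heteronemin and the same cytokine, and both were collected at 6 h. The other 12 arrays, 6 each, set heteronemin-treated against untreated cells and TNFalpha-treated against untreated cells, where DMSO and water replaced the agents. All cells came from the 1 line and had been thawed 10 days before treatment. The 6 cotreated arrays form 3 biological replicates of 2 arrays with the dyes exchanged. The 2 arrays of a pair were averaged, so n = 3, and 18334 genes were measured. All values below are log2 ratios of cotreated over TNFalpha-treated cells unless another comparison is named, so 1 stands for 2-fold higher. A 2-colour ratio gives no level, so the identity of the cells could not be checked from the abundance of markers. Spot intensities were not used here, so precision rests on how many arrays there are.

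Heteronemin is a sesterterpenoid of marine sponges that has been described as an inhibitor of TNFalpha-induced NF-kB activation and of the proteasome. TNFalpha binds its receptor and frees NF-kB transcription factors from their inhibitors, and NF-kB then induces cytokines, adhesion molecules and its own inhibitors. Cells under amino acid shortage, misfolded proteins or oxidants phosphorylate the initiation factor eIF2 alpha. This integrated stress response lowers general translation while the transcription factor ATF4 is made, and ATF4 with its partners induces genes of amino acid supply and of cell death.

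Replicate 1 stood apart from the other replicates of cotreated cells. Its ratios had an SD over genes of 0.38, against 0.21 in replicate 2 and 0.17 in replicate 3. In replicate 1, 319 genes were at 1 or above and 124 at −1 or below. The matching counts were 62 and 16 in replicate 2, and 23 and 15 in replicate 3. Across genes, which are not independent replicates, the ratios of replicates 2 and 3 had a correlation of 0.754, and those of replicate 1 had 0.212 with replicate 2 and 0.171 with replicate 3. Replicate 1 of cotreated cells had a correlation of 0.811 with replicate 1 of heteronemin-treated over untreated cells, although these arrays share no RNA sample. Named genes that lost or gained the call without replicate 1 of cotreated cells are therefore given with each group of genes below. Replicate 1 was singled out from these same data, and without it replicates 2 and 3 alone remain, so n = 2. A call gained without it is weak support for a gene.

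**Figure D1:**
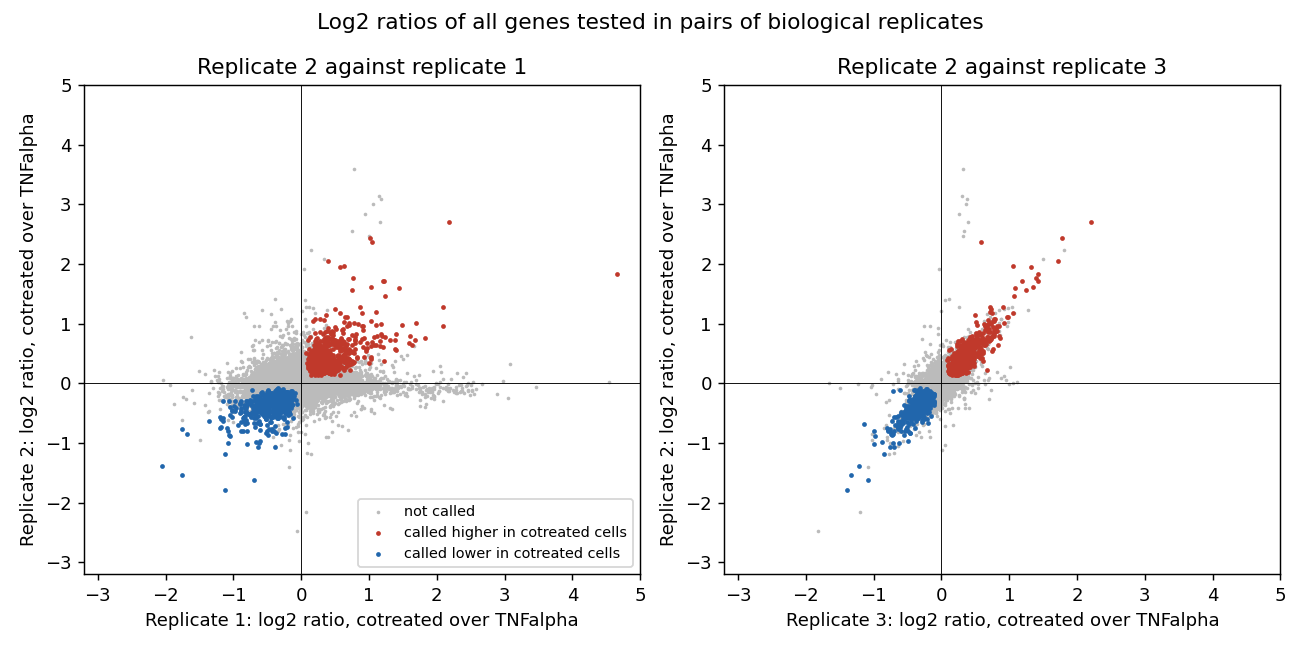
Log2 ratios of cotreated over TNFalpha-treated cells for 18334 genes, with replicate 2 on the y axis against replicate 1 (left) and replicate 3 (right) on the x axis. Each point is a gene, red where it was called higher in cotreated cells, blue where called lower and grey otherwise. Genes of replicates 2 and 3 lie near a diagonal, while many genes of replicate 1 are far from 0 at values near 0 in replicate 2.

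Cotreated cells had 622 genes higher and 578 genes lower than TNFalpha-treated cells. These called genes are 6.55% of all genes tested, with 3.39% higher and 3.15% lower. The changes were small for most of them: 116 higher and 69 lower genes changed at least 1.5-fold, and 23 higher and 7 lower genes at least 2-fold. The genes with the highest ratios included the transcription factors JUN, DDIT3 and ATF3, and those with the lowest ratios included PLD6 of the phospholipase family, the surface protein CD83 and ribosome assembly factors. A call is an adjusted p under 0.05 in limma, fitted over the 9 replicate means of the 3 comparisons with 1 spread per gene, two-sided with Benjamini-Hochberg adjustment over all genes. All 1200 called genes had the same sign in the 3 replicates, and 1011 of them, or 84.2%, had it on all 6 arrays. The 2 arrays of a pair had correlations across genes of 0.513, 0.510 and 0.259 in replicates 1 to 3. The SDs printed below are between pair means and leave out differences between the dyes. PDIA6, TIMM44, CCND3 and TUBB, among others, lay further from 0 with the cotreated sample in Cy5 than in Cy3 in every pair. Without cotreated replicate 1 the fit called 1024 genes, 641 higher and 383 lower, of which 732 were among the 1200. For 73.7% of the genes the SD between replicates was smaller in the TNFalpha comparison than in cotreated cells, so the common estimate is too low and the threshold lenient for most genes. In simulated data with these spreads about as many unchanged as changed genes were among the calls. Far fewer genes were set to change there than were called here, so this share does not carry over to the real calls. With a lenient threshold a call alone is still weak support for a gene. For CXCL8, ICAM1, IER3, CD83 and BCL3, genes of the TNFalpha response, the TNFalpha arrays had the larger spread, and the threshold is strict. A fit of both heteronemin comparisons without it, called the restricted fit below, called 397 genes (2.17%), of which 390 were among the 1200 (211 higher and 179 lower). The cotreated arrays fitted alone called 0 genes in limma, with 2328 at an unadjusted p under 0.05. With the replicate number as a block, the restricted fit called 3717 genes, and 0 of the called genes named below lost the call. This blocked fit removes what same-numbered replicates share, so its calls speak for these 3 replicates and not for the spread between them. Of the 165 called genes named below, 72 also passed in the restricted fit and 110 without replicate 1.

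Of the integrated stress response transcription factors, 6 of 13 measured rose and 0 fell, against 3.39% of all genes called higher. The median of the list was 0.37, against 0.01 over all genes, and it was 0.31, 1.11 and 0.72 in replicates 1 to 3. Without replicate 1 the same number rose and the median was 0.91. DDIT3, which encodes the cell death factor CHOP, had ratios of 2.18, 2.70 and 2.20 in replicates 1 to 3, all high and close together. Its mean of 2.36 ± 0.30 (SD, n = 3) is 5.14-fold higher in cotreated cells (limma adjusted p = 0.000188; 0.00984 in the restricted fit). ATF3, a repressor induced in many stresses, had 1.01, 2.44 and 1.78 (adjusted p = 0.00846; 0.0513 in the restricted fit), lowest in replicate 1. CEBPB, a partner of CHOP and ATF4, had 1.22, 1.72 and 1.18 (adjusted p = 0.000796). Its 12 features all had a mean above 0 but differed in size. Their SDs were 0.14 and 0.17 on the arrays of replicate 1 and 0.30 to 0.58 on those of replicates 2 and 3. JDP2, which dimerises with JUN, had 0.77, 1.76 and 1.40 (adjusted p = 0.00825). CEBPG, another ATF4 partner, had a mean of 0.83 ± 0.32 and ATF4 itself 0.39 ± 0.09 (adjusted p = 0.00509 and 0.0133), and CEBPG passed in the restricted fit while ATF4 did not (adjusted p = 0.0562).

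Among stress effectors and inhibitors of the growth kinase mTORC1, 6 of 21 rose and 0 fell, and the list median was 0.26. HBP1, a transcriptional repressor that slows the cell cycle, had 1.21, 1.71 and 1.42 in replicates 1 to 3 (adjusted p = 0.000304). SESN2, which senses leucine and restrains mTORC1, had 1.44, 1.59 and 1.08 (adjusted p = 0.000969). CHAC1, which breaks down glutathione, had 1.03, 1.61 and 1.35 (adjusted p = 0.00113). These 3 genes were above 1 in every replicate. KLHL24, a ubiquitin ligase adaptor, had a mean of 1.01 ± 0.25 and STC2, a secreted glycoprotein induced by ER stress, 0.95 ± 0.29. PPP1R15A, the phosphatase subunit that reverses eIF2 alpha phosphorylation, had 1.40, 0.83 and 0.56 (adjusted p = 0.0176; 0.0627 in the restricted fit and 0.0577 without replicate 1).

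ATF3 and CHAC1 are the members of the 10 highest genes whose promoter window used here holds the letters TGATGNAAN on either strand. These letters are the CARE element that ATF4 and C/EBP partners bind. Their promoters are printed to show where the element lies. Each covers the 250 bases before the RefSeq transcription start (GRCh38.p14), written 5′ to 3′ on the gene's strand, with the element in capitals. The first listed start of each gene was used, and 6000 further windows of the same symbols were not. The printed start need not be the one used in these cells, and elements at other starts were not searched for.
ATF3 (chr1:212565157-212565406, plus strand): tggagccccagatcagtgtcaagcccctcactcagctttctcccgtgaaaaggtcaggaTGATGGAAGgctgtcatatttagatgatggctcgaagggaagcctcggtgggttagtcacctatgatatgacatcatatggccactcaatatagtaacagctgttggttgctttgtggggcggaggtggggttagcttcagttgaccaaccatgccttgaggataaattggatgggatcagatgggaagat
CHAC1 (chr15:40953221-40953470, plus strand): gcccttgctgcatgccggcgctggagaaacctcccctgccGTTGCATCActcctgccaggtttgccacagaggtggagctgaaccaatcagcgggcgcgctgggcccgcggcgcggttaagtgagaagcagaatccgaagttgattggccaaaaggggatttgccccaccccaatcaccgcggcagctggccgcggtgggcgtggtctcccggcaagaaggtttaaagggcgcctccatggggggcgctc
The element begins 191 bases before the start in ATF3 and 210 bases before it in CHAC1, where it reads on the opposite strand. It was found in 2.11% of the 521 higher genes with a promoter window (250 bases before to 50 after the start) and in 0.821% of the 487 lower genes, against 2.35% of all 14411 tested genes with one. Of the genes at least 2-fold higher, 2 of 20 held it. The share among higher genes was thus close to that of all genes.

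**Figure D2:**
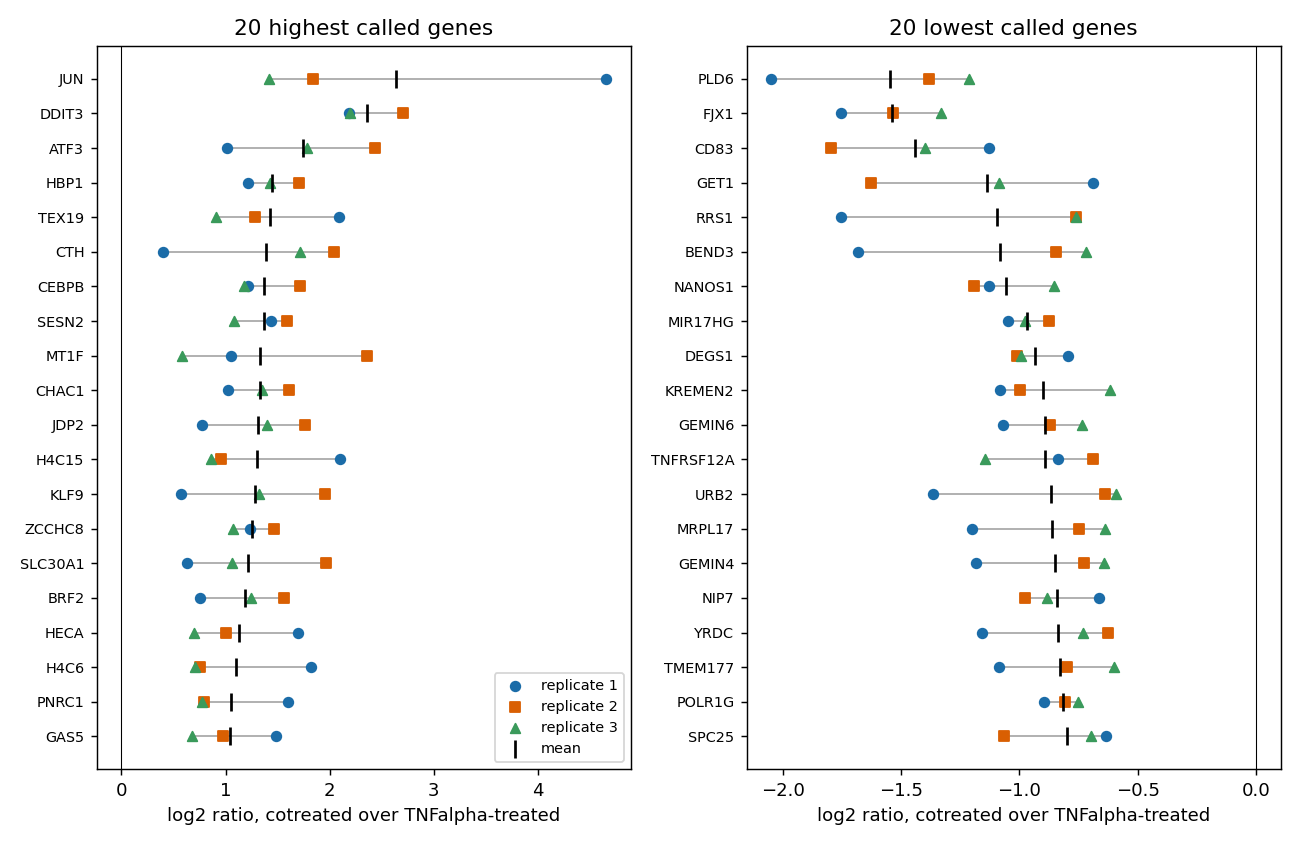
The 20 highest (left) and 20 lowest (right) called genes with the same sign on all 6 arrays, ordered by their mean. The x axis is the log2 ratio of cotreated over TNFalpha-treated cells, symbols are biological replicates, black ticks are means and grey lines span the replicates. JUN spread most, with 4.66 in replicate 1 against 1.84 and 1.42, while the replicates of DDIT3 lie between 2.18 and 2.70.

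Some enzymes of serine, asparagine and cysteine synthesis and some amino acid transporters also rose. Of 12 measured enzymes 5 rose and 0 fell (median 0.24), and of 13 measured transporters 5 rose and 0 fell (median 0.15). CTH, which makes cysteine from cystathionine, had 0.40, 2.04 and 1.71 in replicates 1 to 3 (adjusted p = 0.0383; 0.132 in the restricted fit), with replicate 1 far lower. PSAT1 and PHGDH, of the serine pathway, had means of 0.63 ± 0.20 and 0.56 ± 0.17 (adjusted p = 0.00355 and 0.00462). ALDH1L2 and SHMT2, of mitochondrial folate metabolism, were at 0.44 ± 0.18 and 0.30 ± 0.13. Among transporters, SLC38A2, which carries neutral amino acids, had 0.91, 0.90 and 0.64 (adjusted p = 0.00113). SLC7A11, the cystine transporter, had 0.63, 1.02 and 0.51 (adjusted p = 0.0133; 0.0645 in the restricted fit). SLC1A4, SLC6A9 and SLC43A1 rose by less, with means of 0.29, 0.17 and 0.29. In the restricted fit, 2 enzymes and 1 transporter kept the call. Without replicate 1, SHMT2, SLC6A9 and SLC43A1 lost it (adjusted p = 0.0979, 0.0687 and 0.170). The cytosolic aminoacyl-tRNA synthetases, of which 0 of 18 were called, had a median of 0.08. MARS1 was at 0.24 ± 0.17 (adjusted p = 0.0834) and TARS1 at 0.19 ± 0.12 (adjusted p = 0.0927). Without replicate 1, 2 of the 18 rose, MARS1 among them (adjusted p = 0.0283), and in the blocked fit MARS1 and TARS1 passed (0.0188 and 0.0339). Of 16 mitochondrial synthetases 0 were called as well.

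Of 20 genes of ER chaperones and ER-associated degradation, DNAJB9, a co-chaperone of BiP, rose (0.49, 1.25 and 0.73; adjusted p = 0.0107) and the disulphide isomerase PDIA6 fell (mean −0.32 ± 0.20). The fall of PDIA6 differed by dye, with −0.77, −0.45 and −0.47 in Cy5 and −0.35, 0.06 and 0.03 in Cy3. Of 17 heat shock genes, HSPH1 rose at 0.34 ± 0.10 and DNAJB4 at 0.68 ± 0.07. HSPA1A, the inducible HSP70, had 0.73 in replicate 1 and −0.54 and −0.78 in the others (adjusted p = 0.764), so its replicates disagree in sign. Its mean was −0.66 without cotreated replicate 1 (adjusted p = 0.320) and was called lower without replicate 1 in all comparisons (0.00472). The blocked fit called HSPA1A lower at −0.20 (adjusted p = 0.0307), but leaves out the spread between replicates, which differ in sign here. Of 28 proteasome subunits 0 rose and 2 fell, PSMA4 at −0.25 ± 0.13 and PSMA7 at −0.21 ± 0.06, and the list median was 0.01. Of 33 ubiquitin genes and conjugating enzymes, UBE2H rose (0.52 ± 0.14) and UBE2G2 fell (−0.25 ± 0.02). Of 22 targets of the oxidant sensor NRF2, MAFG, its DNA-binding partner, rose (0.73 ± 0.16; adjusted p = 0.00116). The NRF2 target HMOX1 was at −0.27, 0.02 and −0.07 (adjusted p = 0.487). HSPH1, UBE2H, UBE2G2 and MAFG kept the call in the restricted fit, and DNAJB9, PDIA6, DNAJB4, PSMA4 and PSMA7 did not. PDIA6, DNAJB4 and PSMA4 also lost it without replicate 1 (adjusted p = 0.0785, 0.0529 and 0.0771), where 3 NRF2 targets rose.

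Metallothioneins, small zinc-binding proteins, and other zinc response genes had the highest list median, 1.30 over 14 measured genes, but the replicates were far apart at 0.86, 2.51 and 0.32. The list had 2 higher genes and 1 lower. MT1F had 1.05, 2.36 and 0.59 (adjusted p = 0.0403; 0.135 in the restricted fit, and 0.0700 without replicate 1). The zinc exporter SLC30A1 had 0.63, 1.96 and 1.06 (adjusted p = 0.0131; 0.0637 in the restricted fit). The importer SLC39A10 fell, with −0.67, −0.25 and −0.40 (adjusted p = 0.0169; 0.0713 in the restricted fit). MT2A had 1.16, 2.70 and 0.39 and did not pass (adjusted p = 0.0923), but did in the blocked fit (adjusted p = 0.000407). Metallothionein genes are near-identical, so features of one can bind transcripts of another, and they are not independent. The letters TGCNCNC, the core of the metal response element, are printed in capitals for SLC30A1 and MT2A, the exporter and a main metallothionein. The 250 bases before the first listed start of each are shown.
SLC30A1 (chr1:211579162-211579411, minus strand): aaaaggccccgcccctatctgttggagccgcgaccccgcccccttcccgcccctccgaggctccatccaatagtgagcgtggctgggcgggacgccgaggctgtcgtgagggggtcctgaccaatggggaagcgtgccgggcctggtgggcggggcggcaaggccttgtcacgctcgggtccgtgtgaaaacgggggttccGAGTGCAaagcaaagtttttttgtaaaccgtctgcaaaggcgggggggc
MT2A (chr16:56608334-56608583, plus strand): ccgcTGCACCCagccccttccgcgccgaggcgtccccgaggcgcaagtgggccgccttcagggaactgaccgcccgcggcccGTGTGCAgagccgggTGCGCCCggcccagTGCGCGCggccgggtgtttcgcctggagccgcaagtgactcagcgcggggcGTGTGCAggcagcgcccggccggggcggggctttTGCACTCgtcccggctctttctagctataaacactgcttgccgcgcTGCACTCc
SLC30A1 held 1 match in these bases and MT2A 7, on either strand. Such a short motif is common: it was in 56.2% of the windows of higher genes and 71.0% of those of lower genes, against 61.4% of all windows.

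AP-1 and immediate early factors were led by JUN, the AP-1 subunit, with 4.66, 1.84 and 1.42 in replicates 1 to 3. It was the highest gene of all by its mean of 2.64 ± 1.76, or 6.22-fold (adjusted p = 0.0401). The call was lost in the restricted fit (adjusted p = 0.109) and without replicate 1 (mean 1.63, adjusted p = 0.106). Its 10 features agreed on each array, with SDs from 0.03 to 0.07, so the spread lies between replicates and not between features. JUN was the 1 member of 10 measured AP-1 genes that was called. Of 16 EGR, KLF, NR4A and IER factors 3 rose, ATF3 included, and SRF, the serum response factor, fell (−0.65, −0.40 and −0.48; adjusted p = 0.00349). KLF9 had 0.58, 1.95 and 1.33 and KLF6 0.78, 1.00 and 0.92 (adjusted p = 0.0264 and 0.0176). Of the MAPK phosphatases, DUSP16 and DUSP10 rose to means of 0.65 ± 0.12 and 0.70 ± 0.22, and DUSP7 fell to −0.43 ± 0.22. KLF9 and DUSP7 did not pass in the restricted fit, while KLF6, SRF, DUSP16 and DUSP10 did.

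Of the genes of the TNFalpha response followed here, CD83, KREMEN2, NINJ1 and ZC3H12A fell in cotreated cells, and most others did not pass the test. In TNFalpha-treated over untreated cells 0 of 18334 genes were called by limma, with 315 at an unadjusted p under 0.05, so ratios of that comparison are given as values, with no test passed. The comparison of TNFalpha-treated with untreated cells shares its TNFalpha RNA condition with the cotreated arrays, on the opposite side of the ratio, so the values of both are given side by side and not correlated. CD83, a glycoprotein on activated dendritic cells, fell, with −1.13, −1.79 and −1.40 in cotreated over TNFalpha-treated cells (adjusted p = 0.0268), against 1.42, 3.24 and 2.65 in TNFalpha-treated over untreated cells. KREMEN2, a receptor of Dickkopf proteins, had −1.08, −0.996 and −0.62 (adjusted p = 0.00491), against 1.48, 1.23 and 0.80. NINJ1, a protein of adhesion and membrane rupture, had −0.85, −0.80 and −0.49 (adjusted p = 0.0320; 0.0724 in the restricted fit), against 1.20, 1.72 and 1.11. All 3 genes were below 0 in every replicate of cotreated cells. ZC3H12A, an RNase that degrades cytokine transcripts, had −0.24, −0.85 and −0.75 (adjusted p = 0.0115; 0.0617 in the restricted fit), against 0.60, 0.71 and 0.62. Without replicate 1, CD83 was at −1.60 (adjusted p = 0.0507), NINJ1 at −0.64 (0.107) and KREMEN2 at −0.81 (0.0210). Of the 14 adhesion and activation surface genes measured, 4 fell and 1 rose, and without replicate 1 1 fell and 0 rose. Beside CD83, KREMEN2 and NINJ1, the adhesion molecule ICAM4 fell (−0.31 ± 0.06; adjusted p = 0.0440), and PLAUR, the urokinase receptor, rose (0.27 ± 0.03; adjusted p = 0.0260). Both lost the call in the restricted fit (adjusted p = 0.127 and 0.0754) and without replicate 1 (0.0691 and 0.0594).

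Of 16 measured genes listed as feedback inhibitors of NF-kB, TNFAIP8 rose (0.44 ± 0.25; adjusted p = 0.0164; 0.0722 in the restricted fit) and ZC3H12A fell, and the median was −0.16. TNFAIP8 is not an established inhibitor of NF-kB, so its rise is not that of a feedback inhibitor. It was near 0 in TNFalpha-treated over untreated cells, with −0.06, −0.002 and 0.10. NFKBIA, which encodes the NF-kB inhibitor IkB alpha, had −0.56, −0.02 and 0.08 in cotreated over TNFalpha-treated cells (adjusted p = 0.806), against 2.48, 2.99 and 3.40 in TNFalpha-treated over untreated cells. TNFAIP3, the deubiquitinase A20, had −0.36, 0.29 and 0.44 (adjusted p = 0.700). For both genes replicate 1 was below the others. BCL3, an atypical inhibitor protein, had −1.01, −0.64 and −0.51 (adjusted p = 0.116), against 1.73, 3.17 and 2.53. IER3, a survival gene, had −1.49, −0.94 and −1.02 (adjusted p = 0.148), against 1.22, 3.60 and 3.40. Neither passed, although all 6 arrays were below 0 for both. The SD between replicates of TNFalpha-treated over untreated cells was 1.32 for IER3 and 0.72 for BCL3, against 0.30 and 0.26 in cotreated cells. The restricted fit gave an adjusted p of 0.0613 for IER3 and 0.0685 for BCL3. Both passed as lower in the blocked fit (adjusted p = 0.000558 and 0.000884) and without replicate 1 in all comparisons (0.000360 and 0.0218). TNFAIP3 passed as higher without replicate 1 in all comparisons (0.37, adjusted p = 0.0425).

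Of 5 NF-kB subunits and of 13 chemokines 0 were called. Of 14 TNF superfamily members and interleukins, IL23A, a subunit of interleukin 23, rose (1.23, 0.78 and 0.42; adjusted p = 0.0150; 0.0724 in the restricted fit). LTB, which encodes lymphotoxin beta, had −0.06, −2.47 and −1.82 (adjusted p = 0.0646), against 3.30, 2.77 and 2.31 in TNFalpha-treated over untreated cells. It passed in the blocked fit (adjusted p = 0.00328), which leaves out the spread between replicates, and without replicate 1 (mean −2.15, adjusted p = 0.00693). CCL2, a monocyte chemokine, had 0.08, −2.16 and −1.20 (adjusted p = 0.158), and −1.68 without replicate 1 (adjusted p = 0.0382). Replicate 1 lacked the fall of both genes that replicates 2 and 3 showed. CXCL8 stayed near 0 with 0.01, 0.05 and 0.11, against 0.00, 3.59 and 2.95 in TNFalpha-treated over untreated cells. ICAM1, an adhesion molecule, had −0.39, −1.06 and −0.64 (adjusted p = 0.306), against 0.03, 2.36 and 1.77. All 6 arrays of cotreated cells were below 0 for ICAM1, whose SD was 0.34 there and 1.21 in TNFalpha-treated over untreated cells, and the restricted fit gave an adjusted p of 0.0572. RELB was at −0.05, −0.71 and 0.06, NFKB1 at −0.34, −0.37 and −0.07, and TNF at −0.05, −0.35 and −0.26. Replicate 1 of TNFalpha-treated over untreated cells was thus near 0 for CXCL8, ICAM1 and CCL2 (0.01). Of 16 TNF receptor and IKK components 0 were called, with TAB2 at 0.39 ± 0.25 (adjusted p = 0.0535) and TNFRSF1B at −0.22 ± 0.21. TAB2 passed as higher without replicate 1 (mean 0.51, adjusted p = 0.0318). The blocked fit called TAB2 higher (adjusted p = 0.00346) and CCL2 (0.00353), ICAM1 (0.00907), TNFRSF1B (0.0176), NFKB1 (0.0265) and TNF (0.0411) lower. Without replicate 1 in all comparisons ICAM1, TNF and TNFRSF1B passed as lower (adjusted p = 0.00559, 0.00632 and 0.00237). That fit holds replicates 2 and 3 alone and called 3397 genes in all, against 2 without replicate 2 and 8 without replicate 3.

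**Figure D3:**
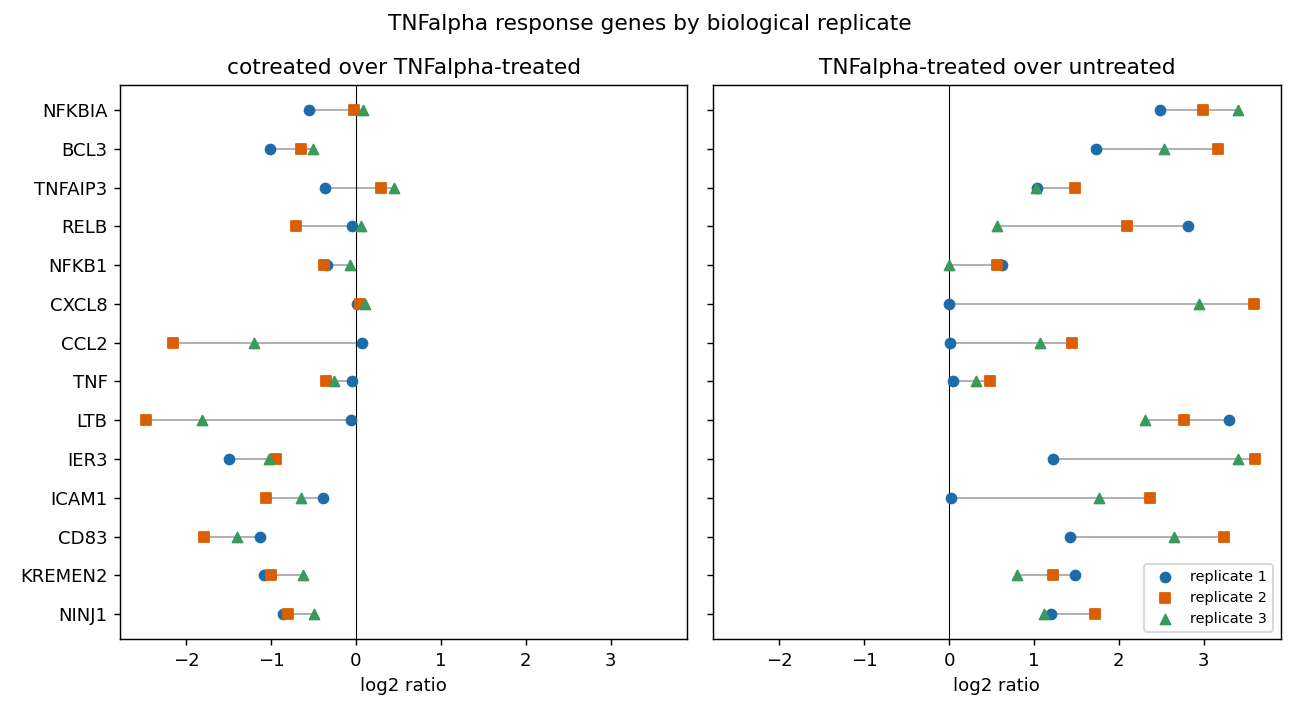
Genes of the TNFalpha response in cotreated over TNFalpha-treated cells (left) and TNFalpha-treated over untreated cells (right). The x axis is the log2 ratio, symbols are biological replicates and grey lines span them. CD83, KREMEN2 and NINJ1 lie below 0 on the left and above 0 on the right in every replicate, while NFKBIA and CXCL8 lie near 0 on the left.

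Of 13 BH3-only and pore genes 4 rose and 0 fell, against 3.39% of all genes called higher and 3.15% lower. The list median was −0.02, and 5 of the 13 genes had a mean above 0, so the list as a whole did not rise. BBC3 (PUMA) had 0.90, 0.95 and 0.83 (adjusted p = 0.00167), and PMAIP1 (NOXA) 0.39, 0.88 and 0.80 (adjusted p = 0.0104). BMF was at 0.52 ± 0.14 and BNIP3L at 0.21 ± 0.09. These genes promote mitochondrial cell death. Of the survival genes BCL2L2 rose (0.26 ± 0.12) and BCL2L1 fell (−0.24 ± 0.10). The death receptor TNFRSF10B rose by 0.31 ± 0.15 and caspase CASP10 by 0.23 ± 0.06, and TNFRSF10A fell (−0.40, −0.35 and −0.25; adjusted p = 0.00563). TNFRSF12A, the receptor of the cytokine TWEAK, was among the 20 lowest genes with −0.84, −0.69 and −1.15 (adjusted p = 0.00289). Of 18 p53 targets 4 rose, among them CCNG2 at 0.85 ± 0.20, DDB2 at 0.51 ± 0.27 and TP53INP1 at 0.40 ± 0.19, and PLK3 fell (−0.40, −0.80 and −0.9999). The median of this list was −0.05, and 8 of the 18 genes had a mean above 0. K562 cells are known to lack functional p53. Of 20 autophagy genes ULK1, the initiating kinase, and GABARAPL1 rose (0.63 ± 0.20 and 0.61 ± 0.10). Of 19 interferon-stimulated genes ISG15 fell (−0.26 ± 0.06; adjusted p = 0.0499). The restricted fit called BBC3, TNFRSF10A, TNFRSF12A, CCNG2, PLK3, ULK1 and GABARAPL1, and lost the other cell death, p53, autophagy and interferon genes named here. Without replicate 1 the calls of BCL2L2, BCL2L1, CASP10, TNFRSF10B and ISG15 were lost (adjusted p = 0.0589, 0.0979, 0.0704, 0.0512 and 0.136).

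Genes of mitochondrial ribosomes, mitochondrial import and RNA polymerases were among those that fell. Of 76 mitochondrial ribosomal proteins 14 fell and 0 rose (18.4%, against 3.15% of all genes), with a list median of −0.15 and medians of −0.24, −0.11 and −0.13 in replicates 1 to 3. In 45 of 76 members all 3 replicates were below 0, or 59.2%, against 19.6% of all genes. MRPL17 had −1.20, −0.75 and −0.64 (adjusted p = 0.0104; 0.0593 in the restricted fit). MRPS17 had −0.81, −0.80 and −0.70 (adjusted p = 0.00170). MRPL24, MRPL36, MRPL11 and MRPL34 had means of −0.53, −0.52, −0.27 and −0.32. In the restricted fit 6 of the 14 fell, and without replicate 1 15 members fell. Of 20 mitochondrial import genes 5 fell (TIMM8A, TOMM22, TIMM21, TOMM6 and TIMM44, with means from −0.61 to −0.32), and 0 of them passed in the restricted fit or without replicate 1. TIMM44 had −0.73, −0.55 and −0.59 with the cotreated sample in Cy5 but −0.09, −0.09 and 0.08 in Cy3. Of 35 complex I genes 4 fell: NDUFB3 (−0.43 ± 0.05), NDUFV2 (−0.42 ± 0.23), NDUFA9 (−0.29 ± 0.07) and NDUFA12 (−0.20 ± 0.02). Of these NDUFB3 alone passed in the restricted fit, and likewise without replicate 1, where 4 complex I genes fell in all.

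Of 28 RNA polymerase subunits 8 fell and 0 rose, with a median of −0.18. POLR1G, a subunit of RNA polymerase I, had −0.90, −0.81 and −0.75 (adjusted p = 0.000668), and its replicates were close. POLR2K and POLR3G were at −0.46 ± 0.01 and −0.45 ± 0.10, and POLR2I, POLR2L and POLR1H at −0.27, −0.29 and −0.26. POLR1G, POLR2K and POLR3G also passed in the restricted fit, and without replicate 1 5 subunits fell and 1 rose, while POLR1H lost the call (adjusted p = 0.0979). Of 33 ribosome biogenesis factors 3 fell: RRS1 (−1.75, −0.76 and −0.76; adjusted p = 0.0294), MRTO4 (−0.43 ± 0.22) and RRP9 (−0.44 ± 0.31). The list median of −0.21 was mainly that of replicate 1, with −0.62, −0.06 and −0.03 in replicates 1 to 3, and 0 factors passed without replicate 1 or in the restricted fit. NIP7 and URB2, also ribosome assembly factors, were among the 20 lowest genes, with −0.67, −0.98 and −0.88 for NIP7 (adjusted p = 0.00281) and −1.37, −0.64 and −0.59 for URB2 (adjusted p = 0.0223). GEMIN6 and GEMIN4, of the complex that assembles spliceosomal particles, had means of −0.89 ± 0.17 and −0.85 ± 0.29. YRDC, which modifies transfer RNA, was at −0.84 ± 0.28. NIP7, GEMIN6 and YRDC kept the call in the restricted fit, and URB2 and GEMIN4 did not. URB2 was also lost without replicate 1 (adjusted p = 0.0671). Of 70 cytosolic ribosomal proteins 1 fell, RPL27A (−0.27 ± 0.13; adjusted p = 0.124 in the restricted fit and 0.104 without replicate 1), and 0 rose. The 2 features of RPL27A differed in sign. A mean above 0 was found in 63 of the 70 genes, against 9706 of all 18334. MYC had −2.04 in replicate 1 and 0.06 and 0.17 in the others (adjusted p = 0.476), and 0 of 13 genes of the MYC and MAX network were called, against 2 higher without replicate 1. The blocked fit, which leaves out the spread between replicates, called MYC lower (adjusted p = 0.00270), but its mean without replicate 1 was 0.11. Its 12 features also disagreed on the arrays of replicate 1, with SDs of 1.23 and 0.73, against 0.06 to 0.27 on the others.

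**Figure D4:**
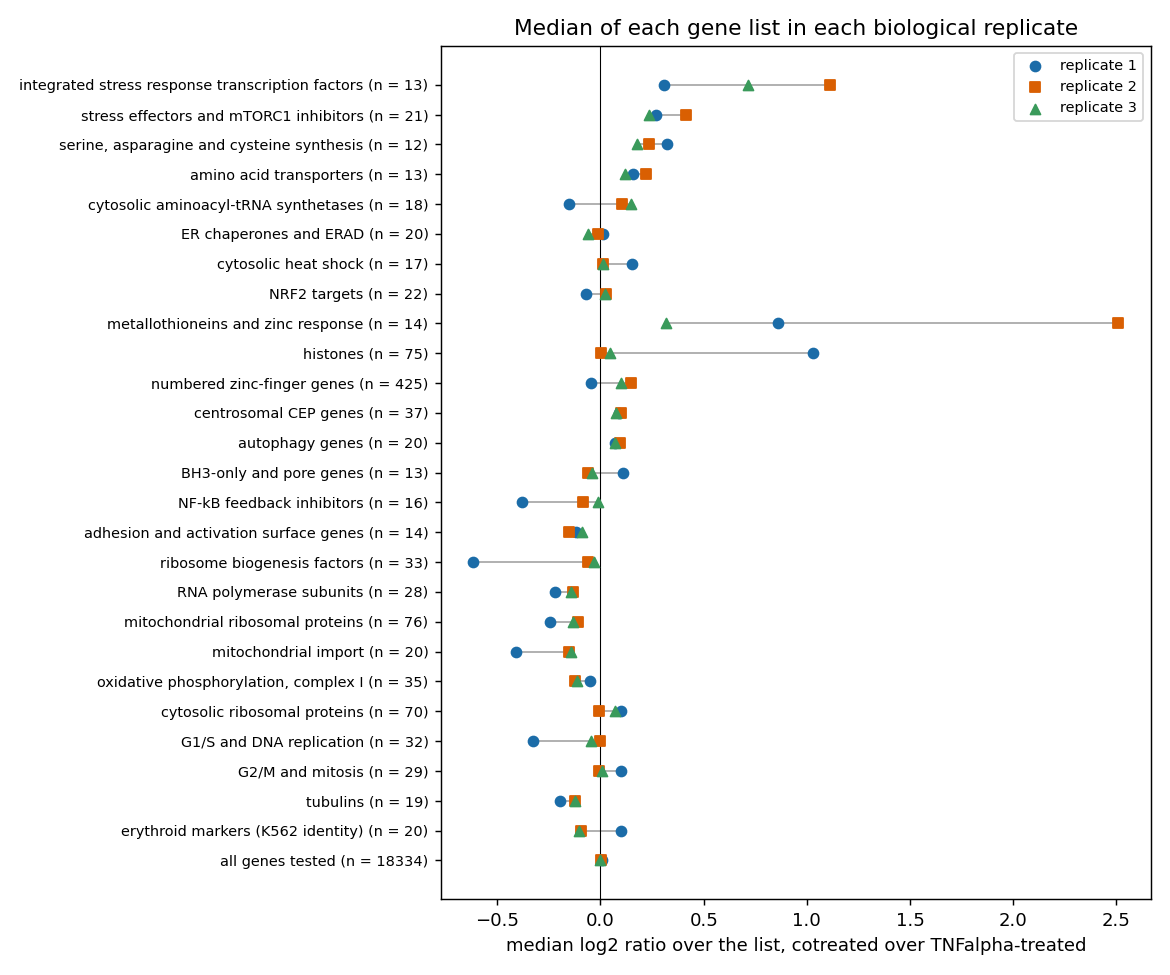
Median log2 ratio of cotreated over TNFalpha-treated cells for 26 gene lists and all genes, 1 symbol for each biological replicate, with grey lines spanning the replicates. Lists run down the page with the number of measured genes in parentheses. Metallothioneins with other zinc response genes and histones spread most, with histones at 1.03 in replicate 1 against 0.00 and 0.05, while all genes lie near 0.

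PLD6 and FJX1 had the lowest means of all called genes. PLD6, a mitochondrial phospholipase family member that acts in piRNA making, had −2.05, −1.38 and −1.21 (mean −1.55 ± 0.44, 2.92-fold lower; adjusted p = 0.00300). FJX1, related to a Golgi kinase of flies, had −1.75, −1.53 and −1.33 (adjusted p = 0.000275). NANOS1, an RNA-binding protein of germ cells, had −1.13, −1.19 and −0.85 (adjusted p = 0.000969). These 3 genes were low in each replicate and passed in the restricted fit. GET1, of tail-anchored protein insertion, had −0.69, −1.62 and −1.09, and the chromatin protein BEND3 −1.68, −0.85 and −0.72. DEGS1, the desaturase that makes ceramide, had −0.79, −1.01 and −0.99 (adjusted p = 0.00289), and the sphingosine kinase SPHK1 was at −0.22 ± 0.05. TEX19, a germline gene, went the other way, with 2.09, 1.28 and 0.91 (adjusted p = 0.00803). TMEM177, a mitochondrial membrane protein, was at −0.83 ± 0.24 and SPC25, of the kinetochore, at −0.80 ± 0.23. GET1, BEND3 and SPHK1 lost the call in the restricted fit, and SPHK1 without replicate 1 (adjusted p = 0.0566).

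Noncoding host transcripts were among both extremes. GAS5, a snoRNA host whose transcript is known to be removed by nonsense-mediated decay when translated, had 1.48, 0.98 and 0.68 (adjusted p = 0.00266). SNHG12 and EPB41L4A-AS1 had means of 0.95 ± 0.21 and 0.78 ± 0.11 (adjusted p = 0.00113 and 0.000471), and SNHG1 0.51 ± 0.25 (adjusted p = 0.0760 in the restricted fit and 0.0622 without replicate 1). MIR17HG, which hosts the miR-17 cluster, had −1.05, −0.88 and −0.98 (mean −0.97 ± 0.09; adjusted p = 0.00132), close in all replicates. The miRNAs of the cluster were not measured here. Their mature RefSeq sequences on chromosome 13 (GRCh38.p14), with the seed (bases 2 to 8) in capitals, are printed to show what the host encodes.
hsa-miR-17-5p: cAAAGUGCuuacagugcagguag
hsa-miR-20a-5p: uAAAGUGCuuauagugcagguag
hsa-miR-18a-5p: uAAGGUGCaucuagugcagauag
hsa-miR-19a-3p: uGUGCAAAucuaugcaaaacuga
hsa-miR-19b-3p: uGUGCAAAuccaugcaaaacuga
hsa-miR-92a-3p: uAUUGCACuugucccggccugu
These 6 miRNAs have 4 distinct seeds: miR-17-5p shares its seed with miR-20a-5p, and miR-19a-3p with miR-19b-3p.

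Histone genes were higher mainly in replicate 1. Of 75 measured, 10 rose and 0 fell, with a median of 0.39 and medians of 1.03, 0.00 and 0.05 in replicates 1 to 3. Without replicate 1 the median was 0.02, 3 rose and 2 fell, and 1 of the 10 passed in the restricted fit. H4C15 had 2.10, 0.96 and 0.86 (adjusted p = 0.0170), H4C6 1.82, 0.76 and 0.71, and H3C4 1.39, 0.58 and 0.76 (adjusted p = 0.00848; 0.0493 in the restricted fit). H4C9 and H3C2 had means of 1.04 ± 0.55 and 0.83 ± 0.49, and H3C7 and H2AC1 0.32 ± 0.12 and 0.27 ± 0.07. H4C6, H3C2, H3C7 and H2AC1 lost the call without replicate 1 (adjusted p = 0.0632, 0.0532, 0.0750 and 0.0786). Histone genes of a class are near-identical, so a feature can bind several of them. Of 32 genes of G1/S and DNA replication 3 fell: FEN1 (−0.96, −0.42 and −0.47), PCNA (−0.32 ± 0.11) and CCND3 (−0.28 ± 0.11). Without replicate 1 the median of this list was 0.02 and 1 gene fell. Of 29 genes of G2/M and mitosis 4 rose, CDC25C (0.61 ± 0.18), TTK (0.49 ± 0.16), HMMR (0.47 ± 0.19) and BUB1 (0.29 ± 0.10), and FAM83D fell (−0.78 ± 0.20). CDC25C and FAM83D passed in the restricted fit, and FEN1, PCNA, CCND3, HMMR, TTK and BUB1 did not. Without replicate 1 PCNA, CCND3 and TTK lost the call (adjusted p = 0.0875, 0.156 and 0.121).

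Some genes of the centrosome and of microtubule motors rose, and some tubulins fell. Of all genes, 3.39% were called higher and 3.15% lower. Of 37 CEP genes 6 rose (16.2%) and 0 fell. CEP295, CEP72 and CEP350 were at 0.35, 0.36 and 0.36, and CEP95, CEP57L1 and CEP57 at 0.33, 0.20 and 0.25. In 24 of 37 (64.9%) all 3 replicates were above 0, against 18.7% of all genes, and 0 of the 6 passed in the restricted fit. Of 38 kinesins 3 rose (7.9%) and 1 fell (2.6%). KIF15, KIF18A and KIF21A rose (0.35, 0.48 and 0.26) and KIF3A fell (−0.37). Of 19 tubulins 4 fell (21%) and 1 rose (5%): TUBB8 (−0.59 ± 0.08), TUBB4B (−0.32 ± 0.04), TUBA3C (−0.24 ± 0.10) and TUBB (−0.32 ± 0.10) fell, and TUBB2B rose (0.31 ± 0.10). KIF15, KIF18A, TUBB8, TUBB4B and TUBB kept the call in the restricted fit. Without replicate 1 CEP350, CEP57L1 and KIF21A (adjusted p = 0.0650, 0.0840 and 0.0542) and TUBB2B, TUBA3C and TUBB (0.0750, 0.0601 and 0.0942) lost it. Tubulins are also close copies.

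Zinc-finger transcription factors formed the largest list. Of 425 measured, 44 rose and 6 fell (10.4% higher, against 3.39% of all genes), with a median of 0.07 and medians of −0.04, 0.15 and 0.10 in replicates 1 to 3. ZNF182 had 0.56, 0.62 and 0.53 (adjusted p = 0.000471), ZNF492 0.57, 0.69 and 0.59 and ZNF92 0.68, 1.12 and 0.98 (adjusted p = 0.000668 and 0.00132). ZNF675, ZNF253 and ZNF10 rose to means of 0.60, 0.39 and 0.54. ZNF696 fell, with −0.51, −0.54 and −0.56, as did ZNF485, ZNF574, ZNF584, ZNF511 and ZNF576. In the restricted fit 20 of the 44 rose and 3 of the 6 fell, and without replicate 1 77 members rose and 3 fell, with ZNF584, ZNF511 and ZNF576 no longer called (adjusted p = 0.0642, 0.0928 and 0.159). Chromosome 19 holds 211 of the 425 genes and 24 of the 44 that rose, or 11.4% of its members, against 9.35% of the others. Paralogs in these families can share features.

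Among other metabolic genes SREBF2 rose (0.20 ± 0.07) and IDI1 fell (−0.40 ± 0.25) of 21 of cholesterol synthesis, and HK2 (−0.46 ± 0.11) and PGAM1 (−0.20 ± 0.11) fell of 20 of glycolysis. Further genes among the 20 highest were ZCCHC8, of the nuclear exosome targeting complex, at 1.26 ± 0.20, BRF2, of RNA polymerase III initiation, at 1.19 ± 0.41, HECA at 1.13 ± 0.51 and PNRC1, a nuclear receptor coactivator, at 1.05 ± 0.47. Of 20 erythroid markers 0 were called and the median was −0.04, with NFE2 at −0.27 ± 0.19 (adjusted p = 0.0733, and 0.00783 in the blocked fit) and HBE1 at −0.13 ± 0.06. Of 10 megakaryocytic markers 0 were called. Of markers of other cells, 1 of 11 lymphoid markers fell, CD3D (−0.36, −0.54 and −0.32), and 1 of 11 monocyte and granulocyte markers rose, FCGR3A (0.20 ± 0.05). Of 11 reference genes 0 were called, with ACTB at −0.18 ± 0.22 (adjusted p = 0.00700 without replicate 1 in all comparisons) and TFRC at −0.21 ± 0.27 (0.0204 in the blocked fit). Of these metabolic, highest and marker genes ZCCHC8, BRF2, HK2 and CD3D passed in the restricted fit. PNRC1, SREBF2, HK2 and FCGR3A lost the call without replicate 1 (adjusted p = 0.129, 0.0815, 0.0579 and 0.0513).

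Most of the genes that heteronemin raised and of those it lowered in TNFalpha-treated cells were called in the same direction in cells without the cytokine. The cotreated and the heteronemin-treated arrays share no RNA, though the same-numbered replicates deviate together. Both sets of calls also come from the 1 fit with 1 spread per gene, so a gene of small spread tends to pass in both. The overlaps of calls below are therefore not independent agreement. Of the 622 genes higher in cotreated cells, 343 (55.1%) were also called higher in heteronemin-treated over untreated cells, which is 81.9% of the 419 called there (2.29% of all genes). Of the 578 lower genes, 343 (59.3%) were called lower there, 72.5% of 473 (2.58% of all genes). In opposite directions 0 genes were called. DDIT3 had 2.18, 2.70 and 2.20 in cotreated over TNFalpha-treated cells and 2.22, 2.70 and 2.33 in heteronemin-treated over untreated cells. PLD6 had −2.05, −1.38 and −1.21, against −2.26, −1.45 and −1.43.

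**Figure D5:**
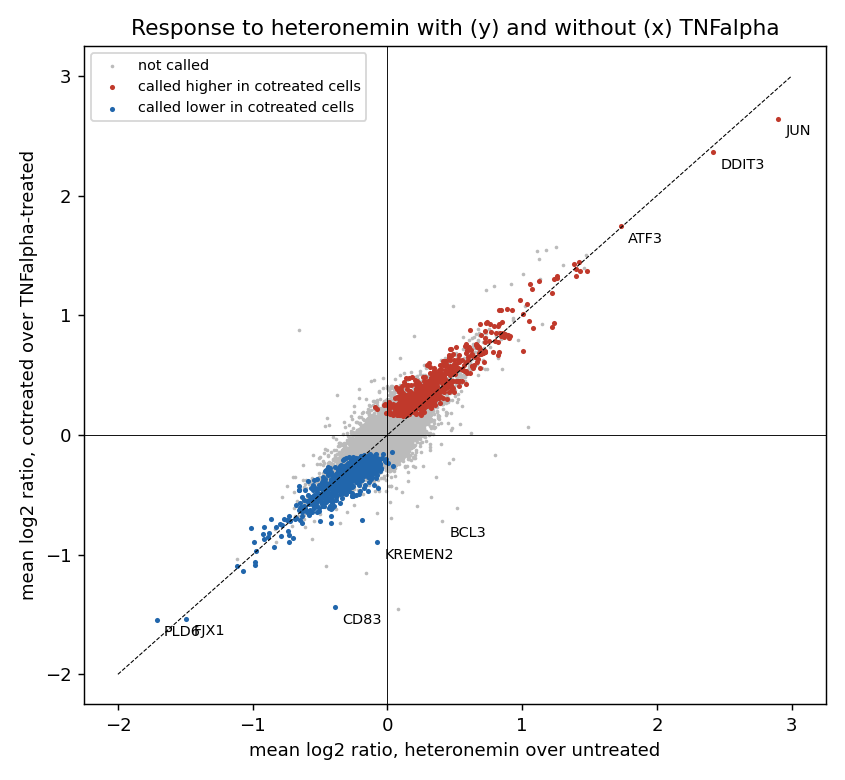
Mean log2 ratio of cotreated over TNFalpha-treated cells (y axis) against heteronemin-treated over untreated cells (x axis) for 18334 genes, n = 3 in each. Colours mark genes called in cotreated cells and the dashed line marks equal ratios. DDIT3, JUN and PLD6 lie near the line, and CD83, KREMEN2 and BCL3 lie below it.

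The difference between the responses, with minus without TNFalpha, was tested in the same fit. For 0 of 18334 genes was it called by limma, with 475 at an unadjusted p under 0.05 and a smallest adjusted p of 0.9999. A p over the threshold does not show that the responses were equal. The smallest p above 0 belonged to LINC01842, ABCA11P (0.88 in cotreated over TNFalpha-treated cells and −0.66 in heteronemin-treated over untreated cells) and WASHC4. LINC01842 was called higher in cotreated cells (mean 0.22) and lost that call without replicate 1 (adjusted p = 0.103). Below 0 the smallest p belonged to LINC00326, AQP4-AS1 and KREMEN2. The dye-exchanged arrays of ABCA11P differed widely, as with 2.61 and 0.09 in cotreated replicate 1 and −2.82 and −0.01 in heteronemin replicate 1. LINC00326 was below 0 with the treated sample in Cy5 and above 0 with it in Cy3 in every cotreated replicate. For KREMEN2 the difference was −0.82 (−0.90 in cotreated over TNFalpha-treated cells, and −0.08 in heteronemin-treated over untreated cells). BCL3 differed by −1.13, with −0.72 and 0.41 in the same order, and CD83 by −1.05, with −1.44 and −0.39. Without replicate 1 in all comparisons, 3 differences were called: CD69, an early activation marker, at −1.48 (adjusted p = 0.00941), IER3 at −1.17 and NFKBIA at −1.38 (adjusted p = 0.0471 each). CD69 was chosen after its values were seen. CD69 had 0.29, 0.04 and −0.12 in cotreated over TNFalpha-treated cells, against 0.26, 1.56 and 1.32 in heteronemin-treated over untreated cells. NFKBIA had −0.56, −0.02 and 0.08, against −0.42, 1.45 and 1.37. Both genes were higher with heteronemin alone in replicates 2 and 3, and stayed near 0 on top of TNFalpha in those replicates.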

How the data were processed

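RNA of K562 cells was labelled with Cy5 and Cy3 (700 ng per sample) and hybridised in dye-exchanged pairs, per the labels' protocols. The authors deposited 1 log2 ratio per feature and array. Per the submitters' processing notes they used limma. How background and dye bias were handled is not given in the sources used here. Deposited log2 ratios were read as treated over control from the order in the sample titles. Large changes kept their sign in a dye-exchanged pair, so both arrays of a pair were oriented alike, which does not give the direction. Read this way, the NF-kB inhibitor gene NFKBIA was at 2.32 to 3.77 on the arrays of TNFalpha-treated over untreated cells. Array medians lay between −0.0145 and 0.0669, so the ratios were centred near 0, and whether arrays were scaled to each other is unknown. Of 45220 features, 31332 with 1 gene symbol in GEO's platform annotation were averaged to 18334 genes, 93 had several and 13795 none.

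Pairs were averaged and the 9 replicate means of 3 comparisons fitted in R 4.3.3 by limma 3.58.1. Each comparison had its own mean, and eBayes moderated the spread (prior degrees of freedom 2.73). Tables and plots were made in Python 3.11.15. Tested on simulated data with the spreads of the real comparisons, the fit found most changed genes with the right sign, but about as many unchanged as changed genes were among its calls. The restricted fit called fewer unchanged genes, though still more than the threshold allows. Such shares depend on how many genes are set to change, which was far fewer than were called in the real data. The 3 replicates were biological, per the series' description. Their numbers pair the cotreated and heteronemin comparisons, since same-numbered deviations from the group means correlated across genes (0.781, 0.626 and 0.622). For the TNFalpha comparison these correlations with cotreated cells were negative (−0.326, −0.220 and −0.274). TNFalpha RNA lies on opposite sides of those ratios, where a shared sample would also give negative values. The heteronemin and TNFalpha comparisons both have untreated RNA as the control. Their same-numbered deviations had correlations of −0.210, 0.031 and −0.095, and in 0 of 3 replicates was the same-numbered one the highest. A pairing of the TNFalpha comparison by number was thus not seen, and fits that block or drop a number in all comparisons assume it.

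The gene lists and named genes were chosen with earlier results of these data known, so lists are described by counts and medians, with no test of their own. The named genes comprise the 20 highest and 20 lowest called genes with 1 sign on 6 arrays, up to 6 called members of a list in each direction by smallest p (or 2 that did not pass), the differences with the smallest p and a fixed set of NF-kB and stress genes.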

Additional observations from a re-analysis of the deposited data

How the results depend on the processing

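Against 1200 genes called, limma called 2173 when the 18 arrays were fitted singly with the pair as a random block, 397 in the restricted fit, 3445 with array weights (0.142 for cotreated replicate 1), 276 with a trended and robust prior, 693 from arrays with the treated sample in Cy3, and 0 from the cotreated arrays alone. With the replicate number as a block the count was 1493 over 3 comparisons and 3717 over both heteronemin comparisons. Of the called genes named here the block over 3 comparisons lost 11: SHMT2, SLC6A9, PSMA7, ICAM4, BNIP3L, PLK3, NDUFA12, TIMM44, CCND3, PGAM1 and WASHC4. This block assumes that the replicate numbers pair the TNFalpha comparison, which was not seen in the correlations of same-numbered deviations. The counts at stricter thresholds were 352 (adjusted p under 0.01) and 30 (at least 2-fold). Leaving out a cotreated replicate gave 336 to 1024 calls, 336 without replicate 2, 626 without replicate 3 and 1024 without replicate 1 (641 higher and 383 lower). Leaving out a replicate in all comparisons gave 2 to 3397: 3397 without replicate 1, 2 without replicate 2 (DDIT3 and HBP1) and 8 without replicate 3. Centring, scaling, quantile normalization, another choice of features and the arrays with the treated sample in Cy5 gave 1014 to 1744. The split of higher and lower calls was 565 and 629 with scaled arrays and 480 and 558 with quantile normalization. The difference with minus without TNFalpha had 0 calls in each alternative but the one without replicate 1 in all comparisons (3).

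None of the 165 called genes named here changed sign in the 20 alternatives. DDIT3, FJX1, HBP1, NANOS1 and SESN2 passed in 18 of them. Of the named genes that did not pass, 12 changed sign. With the feature of largest variance RELA was at 0.1642 and HMOX1 at 0.0389. With the treated sample in Cy3 CXCL5 was at −0.0097, HBE1 at 0.15, ABCA11P at −0.0054 and LINC00326 at 0.32, and with it in Cy5 CXCL8 was at −0.0248. With array weights NFKBIA was at 0.0127 and MYC at 0.0388. With cotreated replicates left out in turn, NFKBIA ranged from −0.2884 to 0.0306 and MYC from −0.9932 to 0.1142, both highest without replicate 1. RELB ranged from −0.3792 to 0.0030 (highest without replicate 2), TNFAIP3 from −0.0329 to 0.3694 (lowest without replicate 3) and HSPA1A from −0.6592 to 0.0963 (highest without replicate 3). The cause was not tested. Intensities were not used here, so background correction, dim probes and slides could not be varied.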

Other observations

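Of the 13888 features without a single gene symbol, 10 had a mean log2 ratio of at least 1 and 3 of at most −1 in cotreated over TNFalpha-treated cells, with the same sign on all 6 arrays. Their means reached 1.64 and −1.58. A further 75 were at least 1 in size with opposite signs in the 2 dye orientations. For 235 genes with at least 10 features the median SD between features of a gene on an array was 0.0999.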
